A study of Homo sapiens with 2 samples.

Results

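MicroRNA genes were read out as part of a total RNA sequencing experiment on KYSE30, a long-established line of esophageal squamous cell carcinoma. The members are the genes of NCBI type miRNA, with a symbol that starts with MIR and a digit or with MIRLET, chosen by a deposited value above 0 in at least 1 of the 2 tables. This rule took 246 of the 1477 microRNA genes with a row in the tables, and the tables hold 40392 genes in all. Both groups were stable transfectants of KYSE30. Cells of the mock group carried the pIRES2-EGFP vector, and those of the RHCG group a vector that expresses human RHCG, an ammonia and ammonium transporter of esophageal epithelium. The labels do not say whether the vectors share a backbone, nor whether each group was 1 clone or a pool. There was 1 library per group and no replicate, so every difference compares these libraries and no test between the groups was possible.

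A microRNA gene is transcribed into a long primary transcript that folds into a hairpin. The nuclear enzyme DROSHA with DGCR8 cuts the hairpin out, XPO5 exports it, and DICER1 trims it to the short mature strand that an Argonaute protein uses to find target messages. Pairing runs mainly through the seed, near the 5′ end of the mature strand, so genes with the same seed are counted as a family. Many hairpins lie in introns or exons of longer genes, their hosts. A read over a hairpin in total RNA can therefore come from the mature strand, the precursor, the primary transcript or the host message. The deposited values do not tell these apart, nor fewer expressing cells from less RNA per cell.

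The mature strands of the members on which the results turn are shown, 5′ to 3′, with the seed (bases 2 to 8) in capitals. They are RefSeq sequences on GRCh38.p14, in which 231 of the 246 genes had a mature strand. Pairs that share a seed stand together, and the 23a, 27a and 24 strands come from 1 cluster but have different seeds.
hsa-let-7a-5p: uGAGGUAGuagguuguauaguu
hsa-let-7e-5p: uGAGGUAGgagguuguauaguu
hsa-miR-103a-3p: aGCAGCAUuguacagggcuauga
hsa-miR-107: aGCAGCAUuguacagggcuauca
hsa-miR-30a-5p: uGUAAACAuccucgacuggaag
hsa-miR-30c-5p: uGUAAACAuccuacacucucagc
hsa-miR-221-3p: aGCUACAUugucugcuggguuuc
hsa-miR-222-3p: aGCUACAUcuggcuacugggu
hsa-miR-23a-3p: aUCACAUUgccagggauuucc
hsa-miR-27a-3p: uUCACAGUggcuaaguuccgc
hsa-miR-24-3p: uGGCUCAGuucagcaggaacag
hsa-miR-21-5p: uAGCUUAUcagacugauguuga
hsa-miR-34a-5p: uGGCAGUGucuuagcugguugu
hsa-miR-205-5p: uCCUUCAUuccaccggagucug
hsa-miR-31-5p: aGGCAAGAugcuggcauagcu

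The transfected gene, RHCG, had a value of 0 in mock and of 413 in the RHCG library. Values are in RPKM, reads per kilobase and per depth of the library. The depth was estimated from the values themselves, at about 18900000 reads for mock and 22100000 for RHCG. Of 9 squamous epithelium genes 8 were listed, among them TP63 (26.2 and 14.4 RPKM in mock and RHCG), while the basal keratin gene KRT5 was at 0 in both. By the 2-fold rule used below, KRT6A (log2 ratio −3.14), KRT13 (−1.31) and SOX2 (−1.18) were lower and none was higher, and 7 of the 8 lay below 0, with a median of −0.77. Of 8 genes of leukocytes, fibroblasts, endothelium, liver and red cells, CD68 and COL1A1 were listed and the others were at 0.

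Each library listed 192 of the 246 microRNA genes. Both listed 138, the mock library alone 54 and the RHCG library alone 54. The median of the listed values was 3.83 RPKM in the mock and 3.47 RPKM in the RHCG library. A hairpin is short, with a median length of 83 bases and a range of 44 to 153, so these levels rest on few reads. The RPKM, the length and the depth give an estimated read number, and its median was 5.5 reads for mock and 6 reads for RHCG. Under 5 reads stood behind 89 and 81 of the listed values, and over 50 reads behind 15 and 20. A gene of median length at 1 RPKM would have 1.57 or 1.83 reads, so a value listed at 0 can hide a read or so and is no sign of absence.

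Reads were concentrated on a few genes. The 5 genes with the most reads held 56.7% of the members' estimated reads in mock and 60.8% in RHCG. MIR3654 (Entrez gene 100500804, chromosome 7) was the highest, at 1814 RPKM in the mock and 1924 RPKM in the RHCG library. MIR614 followed at 322 and 572 RPKM, then MIR4426 at 233 and 334 RPKM, and MIR663A at 162 and 328 RPKM. MIR205, an epithelial microRNA gene, was the only one of the 5 highest that belongs to the epithelial and cancer microRNA group described below, at 178 and 199 RPKM. The next were MIR1244-2 (154 and 115 RPKM), MIR3661 (126 and 66.9 RPKM), MIR23A (45.4 and 120 RPKM), MIR622 (55.3 and 90.1 RPKM) and MIR3609 (53.5 and 77.0 RPKM). Among these 10, MIR1244-2 and MIR3661 were lower in the RHCG library and the other 8 were above, by less than 2-fold except for MIR663A and MIR23A. The log2 ratio of MIR3654 was 0.08, and −0.47 once the median shift of 51 neighbouring genes was removed.

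**Figure D1:**
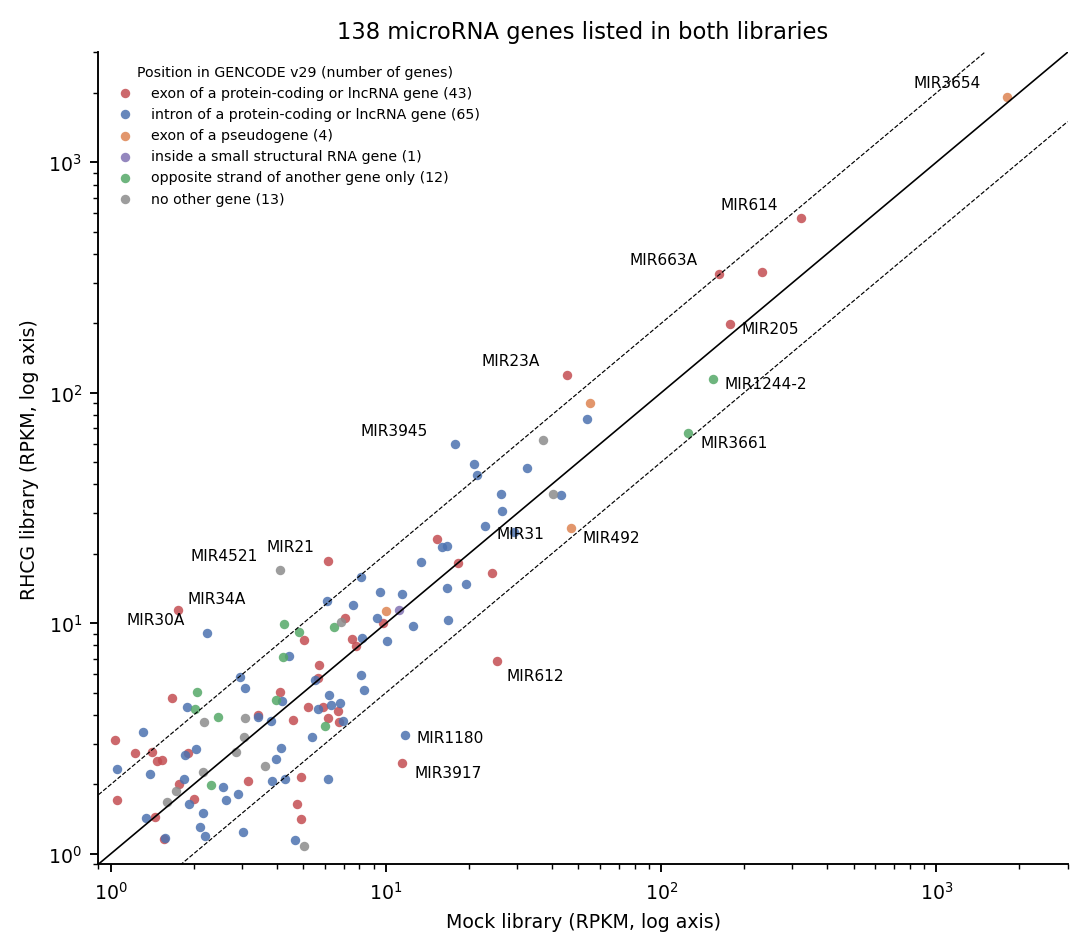
RPKM of the 138 microRNA genes listed in both libraries, mock on the x axis and RHCG on the y axis, both log axes, coloured by position in the GENCODE v29 annotation. The solid line marks equal values and the dashed lines 2-fold; most points lie between the dashed lines, and MIR34A (1.76 and 11.4 RPKM) and MIR612 (25.3 and 6.88 RPKM) lie well outside.

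Differences are given as log2((RHCG + 1)/(mock + 1)) in RPKM, which understates the change of low genes, and a gene is called higher or lower at 2-fold. Of the 138 microRNA genes listed in both libraries 12 were higher (8.70%) and 8 lower (5.80%), against 2.72% and 3.17% of the 11866 genes of all kinds listed in both. Short genes of other kinds, at most 200 bases long, were called at 5.84% in each direction among 257. The share of microRNA genes was thus above that of all genes and near that of other short genes. Their median log2 ratio was 0.08, with 80 above 0 and 58 below, and that of all genes listed in both was 0.01. Small nucleolar and Cajal body RNA genes had a median of 0.26 over 243 genes listed in both. Counting all 246 members, 22 passed upward and 16 downward, around a median of 0.04, where 2.74% and 3.3% of all 12857 genes were called. The members listed in 1 library had to differ in that direction, and their values above 0 chose them, so these counts are a description. A counting interval of the plain RPKM ratio (95%, exact Clopper-Pearson on estimated reads, counting error only) lay above 1 for 9 of the 12 higher genes (6.52% of the 138) and below 1 for 4 of the 8 lower ones (2.9%). The same rule took 5.84% and 5.06% of the other short genes.

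**Figure D2:**
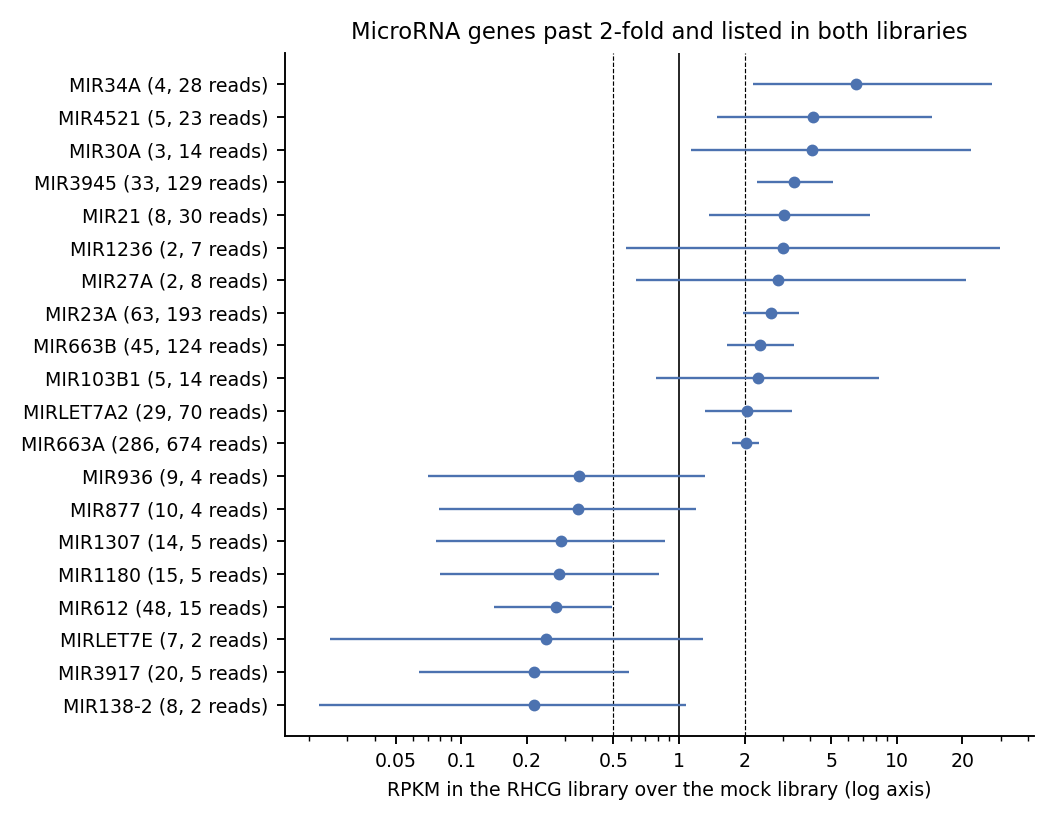
Plain ratio of RPKM, RHCG over mock, on a log axis, for the 12 higher and 8 lower microRNA genes listed in both libraries, with estimated reads in mock and RHCG beside each symbol. Bars are 95% counting intervals, which exclude 1 (solid line) for 9 higher and 4 lower genes; dashed lines mark 2-fold.

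MicroRNA genes known from epithelium and cancer were mostly above 0. Of a list of 50 such genes 37 were listed, 7 were higher and 1 lower, around a median log2 ratio of 0.34, 27 above 0 and 10 below. These were 18.9% and 2.70% of the listed genes, against 8.94% and 6.504% of all 246 members and 2.74% and 3.3% of all 12857 genes, whose median was −0.01. The higher ones were MIR23A, MIR27A, MIR21, MIR34A, MIRLET7A2 and, listed in the RHCG library only, MIR29B1 and MIR125B2, which had to differ by that listing. MIRLET7E was the lower one. MIR203A and MIR203B, known from squamous epithelium, were listed at 0 in both libraries, as were MIR34B and MIR34C.

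The cluster of MIR23A, MIR27A and MIR24-2 on chromosome 19 had log2 ratios above 0 at all its genes, but only the interval of MIR23A excludes 1. MIR23A (Entrez gene 407010) was at 45.4 RPKM in the mock and 120 RPKM in the RHCG library, from about 62.8 and 193 reads. The plain ratio was 2.64-fold (counting interval 1.98 to 3.57) and the log2 ratio 1.38. MIR27A was at 1.66 and 4.75 RPKM, a log2 ratio of 1.11, but from about 2.46 and 8.18 reads, and its interval of 0.633 to 20.8 holds 1. MIR24-2 was at 7.11 and 10.6 RPKM, a log2 ratio of 0.51, and its interval of 0.640 to 3.65 holds 1. The seeds of the 3 mature strands differ, as shown above. In the paralogous cluster on chromosome 9, MIR23B was at 9.47 and 13.6 RPKM, MIR27B at 4.13 and 2.88 RPKM and MIR24-1 at 5.01 and 8.48 RPKM, with log2 ratios of 0.48, −0.40 and 0.66. The intervals of MIR23B (0.770 to 2.78), MIR27B (0.2001 to 2.32) and MIR24-1 (0.609 to 5.23) all hold 1. The hairpin of MIR24-1 matches the transcript that holds MIR24-2 at 56 of 68 bases (82.4%), so their ratios may not be independent.

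MIR21 (Entrez gene 406991, chromosome 17), one of the microRNAs most often raised in carcinomas, was at 6.13 RPKM in the mock and 18.6 RPKM in the RHCG library. About 8.36 and 29.6 reads stood behind these values, a 3.04-fold ratio with an interval of 1.38 to 7.54. MIR34A (Entrez gene 407040, chromosome 1), a transcriptional target of p53, was at 1.76 and 11.4 RPKM. It had the highest log2 ratio of the members listed in both, 2.17, and its 6.49-fold ratio had an interval of 2.19 to 27.5 because the mock value rests on about 3.66 reads. MIR205 (chromosome 1) and MIR31 (chromosome 9), abundant in squamous epithelium, were close in both libraries. MIR205 differed by 1.12-fold (0.976 to 1.29) and MIR31 by 1.15-fold (0.706 to 1.90), from 22.9 to 26.4 RPKM. MIR221 and MIR222, neighbours on the X chromosome with 1 seed, had 32.6 and 47.1 RPKM, and 13.4 and 18.4 RPKM. The interval of MIR221, 1.06 to 1.98, excludes 1, and that of MIR222, 0.842 to 2.30, does not.

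The MIR200 family, which maintains the epithelial state, did not pass 2-fold. MIR200C was at 11.4 RPKM in the mock and 13.4 RPKM in the RHCG library. MIR200B was at 2.84 and 2.77 RPKM and MIR200A at 1.59 and 1.68 RPKM. MIR141 was listed in the mock library alone, at 1.34 RPKM, and MIR429 in neither. These are levels of about 20 reads or fewer, and the interval of MIR200C, 0.567 to 2.46, allows a 2-fold difference.

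The let-7 family was the largest group of members with 1 seed, 11 genes, all listed in both libraries. MIR98, also of this family, was listed at 0 in both libraries and so is no member. The median log2 ratio of the 11 genes was 0.22, with 7 genes above 0 and 4 below. MIRLET7A2 was at 21.4 RPKM in the mock and 44.1 RPKM in the RHCG library. This was a log2 ratio of 1.01 and a 2.06-fold difference (1.32 to 3.29). The log2 ratio of MIRLET7A2 was 0.71 once the median shift of 51 neighbouring genes was removed. MIRLET7A1 and MIRLET7A3, whose mature strand is the same let-7a, had 26.2 and 36.2 RPKM, and 15.3 and 23.3 RPKM. Their log2 ratios, 0.45 and 0.57, lay on the same side. Reads of the shared mature strand fit each of the let-7a genes, and how such reads were counted is not given, so these ratios may not be independent. MIRLET7E stood opposite, at 4.68 and 1.15 RPKM, but from about 7 and 2 reads, and its interval of 0.0249 to 1.29 holds 1. With the neighbour shift removed its log2 ratio of −1.40 was −0.93. Of the others MIRLET7C had a log2 ratio of 0.88, MIRLET7F2 of 0.40, MIRLET7D of 0.22, MIRLET7B of 0.17, MIRLET7I of −0.01, MIRLET7F1 of −0.20 and MIRLET7G of −0.73. MIRLET7E and MIR125A, at 4.30 and 2.11 RPKM, are neighbours on chromosome 19, and MIR99B beside them was listed in the mock library alone, at 1.15 RPKM.

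Families with other seeds were smaller. MIR103A1, MIR103A2 and MIR107, which share a seed and lie in introns of the pantothenate kinase genes PANK3, PANK2 and PANK1 on 3 chromosomes, had log2 ratios of 0.93, 0.88 and 0.92. MIR103A1 was at 6.10 RPKM in the mock and 12.5 RPKM in the RHCG library, MIR103A2 at 8.12 and 15.8 RPKM, and MIR107 at 1.30 and 3.36 RPKM. The 3 kinase genes lay slightly below 0, with log2 ratios of −0.16, −0.24 and −0.16. The interval of each of these microRNA genes holds 1, for example 0.904 to 5.07 for MIR103A1, and the family was singled out after its values were seen. MIR103A1 and MIR103A2 give the same mature strand, so they too may share reads. MIR30A was higher, at 2.23 and 9.06 RPKM (log2 ratio 1.64, interval 1.14 to 22.0), and MIR30C2, in the same long non-coding RNA gene LINC00472, was at 4.44 and 7.17 RPKM. MIR30C1, with the same seed, lay below 0, at 6.21 and 4.87 RPKM (log2 ratio −0.30, interval 0.291 to 2.09). MIR125B1 and MIR100, neighbours of MIRLET7A2 in MIR100HG, had log2 ratios of 0.03 and 0.34, and MIR29A one of 0.65. MIR125B2 was listed in the RHCG library alone, at 5.09 RPKM. Of the MIR17 cluster, MIR17 and MIR92A1 were listed in the RHCG library alone, at 1.35 and 2.32 RPKM, and MIR18A, MIR19A, MIR19B1 and MIR20A in neither.

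**Figure D3:**
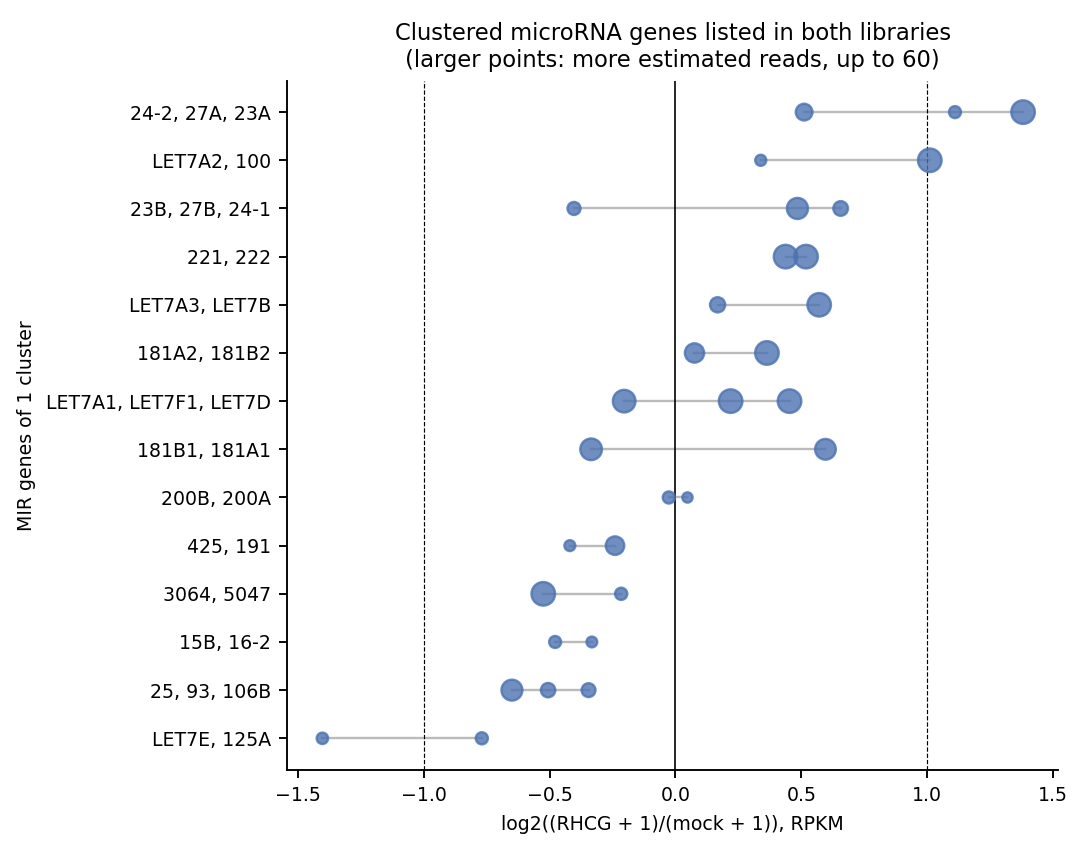
Log2 ratio of RHCG over mock for microRNA genes that lie within 10000 bases of each other, 1 line per cluster, genes listed in both libraries only; a larger point has more estimated reads. The 3 genes of the 23A cluster lie to the right of 0 (0.51 to 1.38) and those of the 25, 93 and 106B cluster to its left (−0.65 to −0.35).

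Members outside the epithelial and cancer list also passed 2-fold in both directions. MIR3945 was at 17.8 RPKM in the mock and 59.7 RPKM in the RHCG library, from about 33 and 129 reads. Its 3.36-fold ratio had an interval of 2.27 to 5.08, the highest lower bound of the members listed in both. MIR4521, with no other gene at its place, was at 4.12 and 17.02 RPKM (log2 ratio 1.81, interval 1.495 to 14.6). MIR663A was at 162 and 328 RPKM and MIR663B at 20.8 and 49.0 RPKM, with log2 ratios of 1.01 and 1.20. Both fell under 2-fold with the neighbour shift removed, at 0.89 and 0.63. Both are on a list of microRNA genes derived from structural RNA, and whether their reads came from such RNA was not tested. MIR663AHG, in whose exon MIR663A lies, was listed at 0 in both libraries. MIR103B1 (4.26 and 9.88 RPKM) and MIR1236 (1.04 and 3.11 RPKM) had intervals that hold 1.

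On the lower side MIR612 (Entrez gene 693197, chromosome 11) had the most reads. It was at 25.3 RPKM in the mock and 6.88 RPKM in the RHCG library, from about 47.9 and 15.2 reads, a log2 ratio of −1.74 and a plain ratio of 0.272 (0.142 to 0.493). MIR3917 was at 11.5 and 2.47 RPKM, the lowest log2 ratio of those listed in both, −1.84, with a plain ratio of 0.216 (0.0639 to 0.588). MIR1180 was at 11.7 and 3.28 RPKM (−1.57), and MIR1307 at 4.92 and 1.41 RPKM (−1.30). The intervals of these 4 genes lay below 1. MIR877 (6.14 and 2.11 RPKM), MIR936 (4.74 and 1.64 RPKM) and MIR138-2 (5.03 and 1.08 RPKM) had intervals that hold 1, and MIR936 was at −0.93 with the neighbour shift removed.

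The 54 genes listed in the mock library alone and the 54 listed in the RHCG library alone were low. The first had a median of 1.60 RPKM and the second of 1.42 RPKM, from a median of 2.37 and 2.65 estimated reads. The highest in the mock library alone were MIR1469 (7.16 RPKM), MIR5087 (6.08), MIR3176 (5.95), MIR631 (5.15) and MIR3940 (5.03). The highest in the RHCG library alone were MIR218-1 (5.43 RPKM), MIR125B2 (5.09), MIR186 (4.26), MIR378A (4.12) and MIR4508 (3.88). No ratio is given for them, since their other value is listed at 0. Measured hosts of these 10 genes did not pass 2-fold. MIR1469 lies in an exon of NR2F2, a nuclear receptor gene, at 53.1 and 37.0 RPKM, and MIR3940 in an exon of the RNA-binding protein gene KHSRP, at 78.5 and 62.9 RPKM. MIR218-1 lies in an intron of SLIT2, a guidance ligand gene, at 4.31 and 4.09 RPKM.

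Position in longer genes was taken from GENCODE v29. Of the 246 members 109 lay in an intron and 79 in an exon of a protein-coding or long non-coding gene on the same strand, 26 on the opposite strand of another gene only, 26 at no other gene, 5 in a pseudogene exon, and 1, MIR3651, inside the small nucleolar RNA gene SNORA84. Members in exons of pseudogenes had the highest median level, 46.8 RPKM in the mock and 58.0 RPKM in the RHCG library, against 3.89 and 4.01 RPKM for members in introns. The log2 ratios of members listed in both and of their measured hosts had a Pearson r of 0.25 across 29 exonic members and of 0.39 across 37 intronic members. With at least 20 estimated reads these were 0.30 across 14 and 0.54 across 15. The rank (Spearman) correlations were 0.29 and 0.32, and 0.24 and 0.4 with that minimum of reads. With the minimum, member and host lay on the same side of 0 for 10 of the 14 exonic and 9 of the 15 intronic members. These correlations run across genes of the same libraries and are a description. A member and its exonic host can also share reads.

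Hosts were called at about the rate of all genes. Of 123 measured hosts 3 were higher (2.44%) and 5 lower (4.07%), against 2.74% and 3.3% of all genes, and their median log2 ratio was −0.04. The higher ones, named here after their values were seen as are the lower ones, were ANKRD30BL, GPRC5A and GDF15. The lower ones were MCM7, LFNG, MIR210HG, MXD4 and AMH. Of 53 host genes named for a microRNA 14 were measured, and only MIR210HG was called, at 7.89 RPKM in the mock and 1.04 RPKM in the RHCG library. MIR210, a hypoxia-induced microRNA gene in its intron, was listed in the mock library alone, at 1.48 RPKM from about 3.08 reads. Of the others MIRLET7BHG, at 6.42 and 3.19 RPKM, lay farthest from 0, with a log2 ratio of −0.83. MIR22HG (9.27 and 8.82 RPKM), MIR497HG (7.63 and 10.1), MIR550A3HG (8.16 and 9.45), MIR1915HG (7.37 and 4.75), MIR17HG (1.20 and 1.37) and MIR600HG (1.63 and 1.30) did not pass 2-fold.

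Some members moved with their host and others did not. MIR614 lies in an exon of GPRC5A, a retinoic acid-induced receptor gene. It was at 322 RPKM in the mock and 572 RPKM in the RHCG library, and GPRC5A at 250 and 521 RPKM, log2 ratios of 0.83 and 1.05. MIR663B, on the list derived from structural RNA, and ANKRD30BL, in whose intron it lies, had log2 ratios of 1.20 and 1.17. By contrast MIR23A lies in an exon of MIR23AHG, which was at 23.4 and 23.8 RPKM, a log2 ratio of 0.03 beside 1.38 for MIR23A. MIR21 overlaps an exon of VMP1, an autophagy gene, which was at 54.8 and 57.1 RPKM, a log2 ratio of 0.06 beside 1.46. MIR205 and MIR205HG, at 173 and 141 RPKM, had log2 ratios of 0.16 and −0.29.

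MIR612 lies in NEAT1, the RNA scaffold of nuclear paraspeckles, which was at 116 RPKM in the mock and 101 RPKM in the RHCG library. The log2 ratio was −0.19 for NEAT1 and −1.74 for MIR612. Of 8 NEAT1 transcripts in GENCODE v29 only 1, the long isoform of 22743 bases, holds MIR612, and the deposited tables give 1 value for NEAT1 as a whole. MIR3917 lies in an exon of STMN1, a microtubule regulator gene, at 47.6 and 31.1 RPKM, with a log2 ratio of −0.60 beside −1.84. MIR25, MIR93 and MIR106B lie in an intron of MCM7, a replicative helicase gene at 162 and 51.1 RPKM. MCM7 had a log2 ratio of −1.64, and the microRNA genes, at 16.8 and 10.3, 6.78 and 4.48, and 5.67 and 4.25 RPKM, had −0.65, −0.51 and −0.35. The intervals of these 3 hold 1. MIR3189, in an intron of the stress cytokine gene GDF15, was at 4.17 and 4.59 RPKM while GDF15 was at 29.6 and 116 RPKM. Whether a microRNA gene differed from its host beyond the spread between cultures cannot be tested with 1 library per group.

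**Figure D4:**
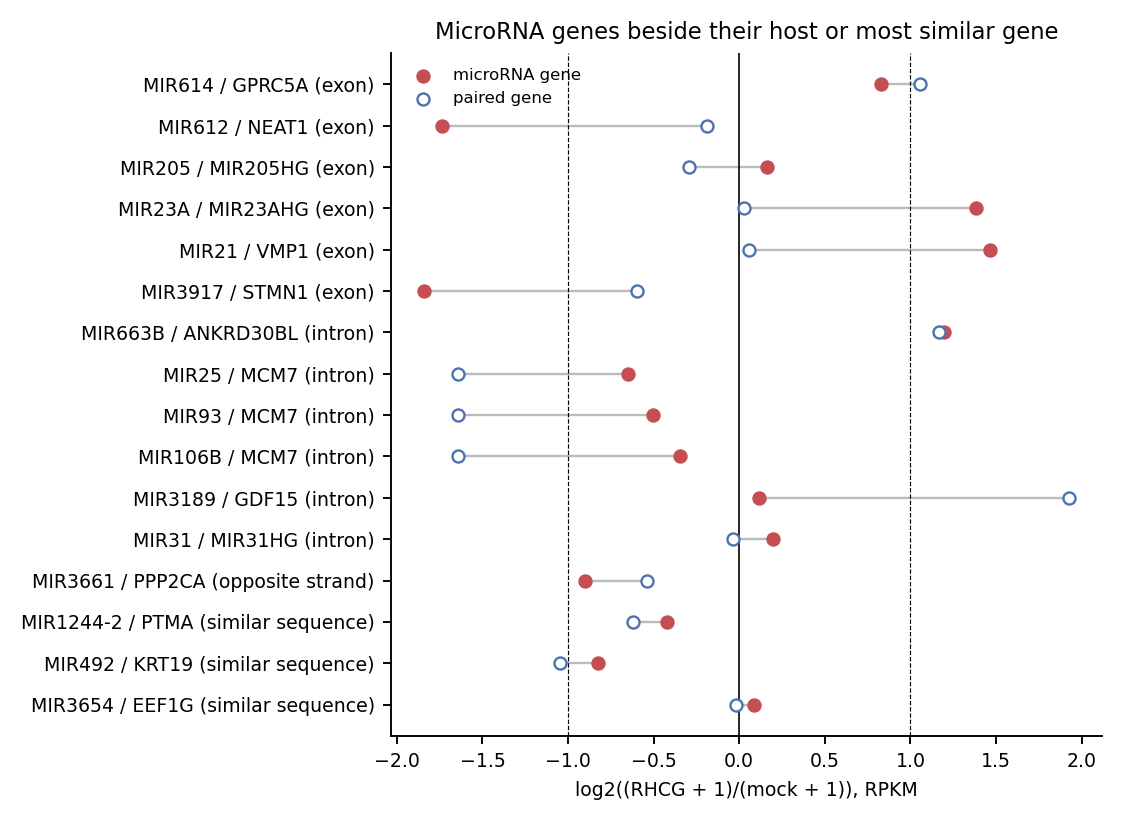
Log2 ratio of RHCG over mock for 16 microRNA genes (filled points) and for the gene that holds them, lies opposite or has a similar sequence (open points), with dashed lines at 2-fold. MIR663B and ANKRD30BL nearly coincide, while MIR612 and NEAT1, MIR23A and MIR23AHG, MIR21 and VMP1, and MIR3189 and GDF15 stand apart.

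Several of the most abundant members have hairpins that match an abundant protein-coding message. The whole hairpin of MIR3654, 56 bases, is identical to a stretch of the transcript of EEF1G, a translation elongation factor gene at 586 and 578 RPKM. It is printed because it carries the highest value of all members, in lower case throughout since no part is marked.
MIR3654: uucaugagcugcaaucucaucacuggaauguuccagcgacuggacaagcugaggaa
MIR3654 and EEF1G had log2 ratios of 0.08 and −0.02. The 85-base hairpin shared by MIR1244-2 and MIR1244-3 is identical to a stretch of PTMA, the prothymosin gene, at 308 and 200 RPKM. MIR1244-2, at 154 and 115 RPKM, and PTMA both lay below 0, with log2 ratios of −0.42 and −0.62. MIR492, in a keratin 19 pseudogene, matches KRT19 at 107 of 116 bases (92.2%). It was at 46.8 RPKM in the mock and 25.99 RPKM in the RHCG library, and KRT19 at 1766 and 855 RPKM, log2 ratios of −0.82 and −1.05. MIR4426 matches the ribosomal protein gene RPS27A at 62 of 63 bases (98.4%), and their log2 ratios were 0.52 and 0.19. RPS27A, at 54.2 and 62.0 RPKM, lay below MIR4426, at 233 and 334 RPKM. Of 20 genes that MIR4426 matches, UBB was the most abundant, at 1284 and 630 RPKM, but it shares only 50 of the 63 bases (79.4%). MIR622, in the keratin 18 pseudogene KRT18P27, had a log2 ratio of 0.70, and KRT18, at 1810 and 2194 RPKM, one of 0.28. No near-full-length match of the MIR622 hairpin to a KRT18 transcript was found. How reads that fit more than 1 place were counted is not given in the sources used here, so the values of these members are uncertain.

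The strand of the reads was another limit. MIR3661 lies opposite an exon of PPP2CA, the catalytic subunit gene of protein phosphatase 2A, at 63.8 and 43.7 RPKM. MIR3661 was at 126 and 66.9 RPKM, a log2 ratio of −0.90 beside −0.54 for PPP2CA. Of 6 pairs of microRNA genes that overlap on opposite strands, 4 had the same estimated reads for both genes. MIR423 and MIR3184 each had 13.9 reads in mock and 16.5 in RHCG. MIR122 and MIR3591 each had 5.5 and 7.5 reads, MIR7-2 and MIR3529 each 4.5 and 5.5, and MIR24-1 and MIR3074 each 6.46 and 12.7. MIR103A2 and MIR103B2 differed, with 12 and 7.60 reads in mock and 27.2 and 13.2 in RHCG. MIR103A1 and MIR103B1 differed by 4 reads in the mock and 8 reads in the RHCG library. MIR103A1 reaches beyond MIR103B1, as the hairpins show (RefSeq, GRCh38.p14, 5′ to 3′), in which capitals mark the 62 shared bases.
MIR103A1: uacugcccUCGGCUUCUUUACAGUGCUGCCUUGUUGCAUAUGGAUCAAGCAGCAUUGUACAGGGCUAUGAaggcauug
MIR103B1: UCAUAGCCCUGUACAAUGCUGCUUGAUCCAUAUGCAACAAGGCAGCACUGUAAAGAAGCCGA
The call of MIR103B1 as higher therefore cannot be told apart from reads of MIR103A1.

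Genes that make or use microRNAs were also called at about the rate of all genes. Of 40 processing and effector genes 39 were measured, and 1 was higher and 1 lower (2.56% each, against 2.74% and 3.3% of all genes). Their median log2 ratio was 0.04, with 21 above 0 and 18 below. PRKRA, which encodes the DICER1 partner PACT, was higher, at 8.42 RPKM in the mock and 22.8 RPKM in the RHCG library (log2 ratio 1.34). SRRT, which encodes ARS2, a cap complex protein that aids primary transcript processing, was lower, at 76.6 and 36.2 RPKM, a log2 ratio of −1.06. The nuclear cutters DROSHA (22.0 and 23.7 RPKM) and DGCR8 (27.7 and 20.3 RPKM) had log2 ratios of 0.11 and −0.43. The exporter XPO5 was at 31.6 and 49.3 RPKM, a log2 ratio of 0.62. DICER1 was at 10.6 and 11.7 RPKM and its partner TARBP2 at 23.1 and 15.5 RPKM, log2 ratios of 0.14 and −0.54. The Argonaute genes AGO1 (12.4 and 10.03 RPKM) and AGO2 (33.4 and 33.8 RPKM) had log2 ratios of −0.28 and 0.02. LIN28A, which blocks let-7 processing, was listed at 0 in both libraries. Its paralog LIN28B, on the same list, was at 1.16 RPKM in the mock and 1.39 RPKM in the RHCG library (log2 ratio 0.15).

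**Figure D5:**
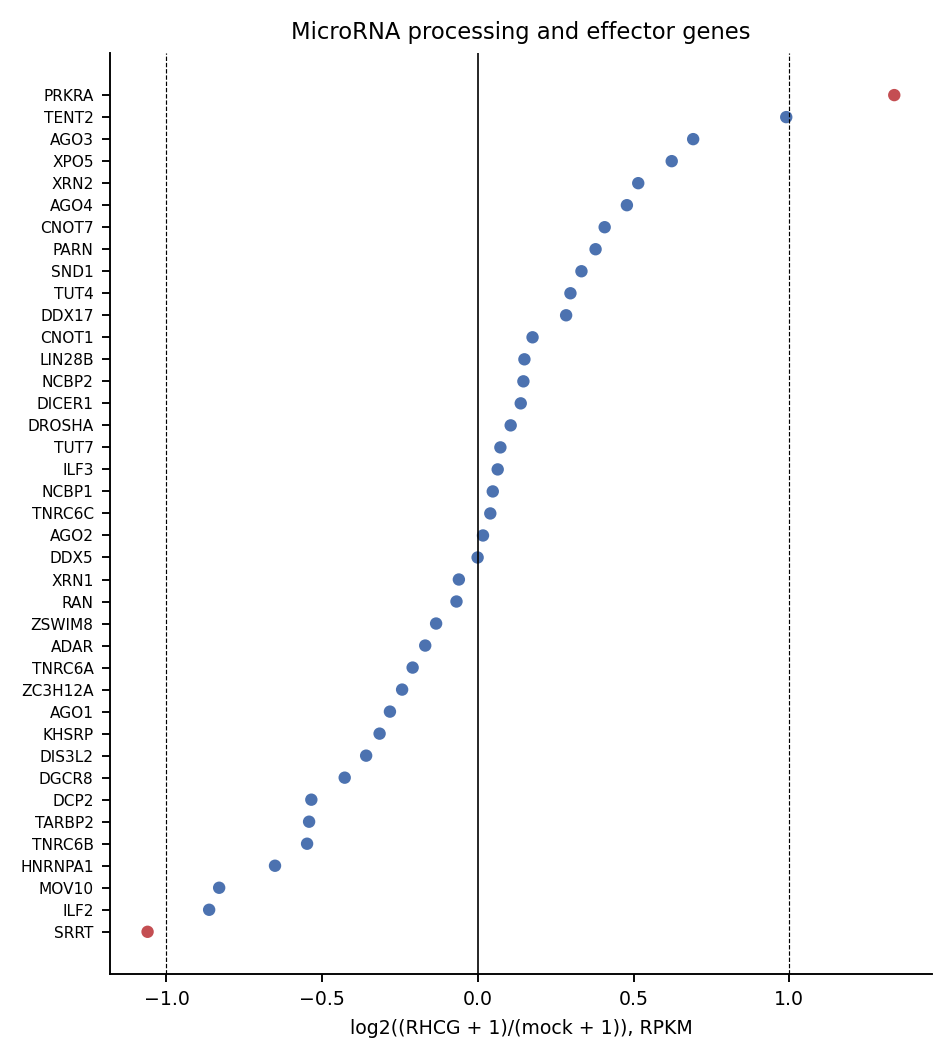
Log2 ratio of RHCG over mock for the 39 measured genes of microRNA processing and action, in order of the ratio, with dashed lines at 2-fold. Only PRKRA (1.34) lies beyond 2-fold on the right and only SRRT (−1.06) on the left.

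Few microRNA genes known from other tissues were listed, but a value of 0 is the usual one, since 16.7% of all microRNA genes with a row were listed. None of 8 muscle genes, 4 leukocyte genes, 2 erythroid genes and 5 mesenchymal genes was listed, among them MIR133A1, MIR142, MIR451A and MIR145. Of 7 neuronal genes MIR128-1 was listed in the RHCG library alone, at 1.66 RPKM. MIR126, an endothelial gene, was listed in the mock library alone, at 1.85 RPKM. MIR122, known from liver, was at 3.42 and 3.999 RPKM, with the same estimated reads as MIR3591 on the opposite strand.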

How the data were processed

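Total RNA of stable KYSE30 transfectants was treated with DNase I, depleted of ribosomal RNA and sequenced on the Ion Torrent platform with 1 library per group, per the labels' protocols. The authors deposited 1 table per library, whose header names RPKM but whose values are log2 of RPKM. The submitters' processing notes name hg19 and bedtools 2.25.0. The aligner, the counting rule and the use of strand were not given in the sources used here. Because the build of the files differs from that of the sequences, no coordinates are given.

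Values were unlogged, rows of 1 Entrez gene with a copy suffix were summed, and a listed 0 was replaced by 1 RPKM. A listed 0 can mean 1 RPKM or less, an absence of reads, or a gene outside the authors' count. Ratios were log2((RHCG + 1)/(mock + 1)) over genes whose mean reached 1 RPKM, called at 2-fold with no test. Ratios of members listed in 1 library rest on that floor, so they enter counts and medians, but none is printed. Estimated reads are RPKM times hairpin length over a depth constant, 52.8 for mock and 45.3 for RHCG. The constant was fitted to the values of microRNA and small nucleolar RNA genes, as the one at which low values fell most sharply near whole reads. The depths, reads and intervals all rest on this fit. Below 20 reads, 37 of the 158 mock values and 52 of the 148 RHCG values came within 0.01 of a whole read, so reads are approximate and no count model was used. Counting intervals (95%, exact Clopper-Pearson) cover counting error only. The calling rule was also run on simulated data with counting error only. Changes were planted only in genes of a higher level than most members, so that run does not speak for low members.

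Symbols and types came from the RefSeq gene table, hosts from GENCODE v29, and hairpins were matched to its transcripts with BLAST 2.17.0. Neighbouring genes for the neighbour shift were the 51 nearest protein-coding genes of at least 3 RPKM on average. Named members were those past 2-fold in both libraries, the 10 highest, the 5 highest listed in each library alone, and the listed members of the epithelial and cancer list. Named machinery genes were those past 2-fold and the core DROSHA, DGCR8, DICER1, XPO5, AGO1, AGO2 and TARBP2. Named hosts were those of named members and the measured hosts named for a microRNA. Other genes are examples chosen after their values were seen, among them the matching genes, MIR3189, MIR103A1, MIR107, MIR30C1, MIR30C2 and the MIR25 cluster. Members, lists and rules were chosen with earlier results of these data known. Alternatives were a pseudocount of 0.1 RPKM, other floors, filters, scalings and folds, and the removal of neighbour shifts. Scripts ran in Python 3.11.15 with pandas 2.3.3, numpy 2.4.6, matplotlib 3.10.9 and scipy 1.17.1.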

Additional observations from a re-analysis of the deposited data

How the results depend on the processing

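No paired analysis was possible because each group held a single library, so none could be omitted either. The 22 higher and 16 lower microRNA genes became 66 and 62 when a listed 0 was taken as 0 RPKM, and 47 and 36 with a ratio of 1.5, which loosen the rule by construction. They became 10 and 3 with a minimum mean of 5 RPKM, and 8 and 3 with at least 20 estimated reads in both libraries together, which test fewer genes. A pseudocount of 0.1 RPKM gave 33 and 24, and removal of the neighbour shift 19 and 15. The median log2 ratio of the members stayed between 0.03 and 0.17, and no named member past 2-fold changed sign under these settings. With the neighbour shift removed, 5 named members listed in both libraries and nearer 0 did. They were MIR3654 (0.08 to −0.47), MIR200C (0.21 to −0.04), MIR200B (−0.03 to 0.03), MIR125B1 (0.03 to −0.28) and MIRLET7I (−0.01 to 0.36). Named members listed in 1 library alone were not among those counted, and of them MIR17, MIR210 and MIR99B also changed sign. Of 527 values of the 51 named members listed in both libraries under other settings, 521 stayed within the counting interval. The remaining 6, all with the neighbour shift removed, did not. The neighbour shift and the minimum of 20 reads were chosen after seeing the data. Depth limits most members, since 89 and 81 listed values rest on under 5 reads.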

Other observations

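Some members with many reads that did not pass 2-fold had a counting interval that excludes 1. Among the members listed in both libraries and not past 2-fold, 9 had a counting interval that excludes 1, 6 above and 3 below. MIR320A, a microRNA gene at no other gene's place, was at 37.0 RPKM in the mock and 62.3 RPKM in the RHCG library, a plain ratio of 1.68 (1.19 to 2.41). MIR3609, in an intron of TRRAP, a histone acetyltransferase cofactor gene at 14.3 and 13.9 RPKM, was at 53.5 and 77.0 RPKM, a ratio of 1.44 (1.09 to 1.92). MIR4449, in an intron of DANCR, a long non-coding RNA gene at 18.4 and 10.2 RPKM, was at 43.2 and 36.1 RPKM, a ratio of 0.836 whose interval of 0.561 to 1.246 holds 1.

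The 4 genes for miR-181a and miR-181b, which share a seed, had log2 ratios from −0.34 (MIR181B1) to 0.60 (MIR181A1), and 3 lay above 0. MIR15B and MIR16-2, in an intron of the condensin gene SMC4, had 2.15 and 1.51 RPKM, and 3.97 and 2.57 RPKM. SMC4 was at 23.6 and 14.2 RPKM, and all 3 lay below 0. MIR105-1 and MIR767, in an intron of the GABA receptor gene GABRA3 on the X chromosome, were both listed in the RHCG library alone, at 3.36 and 2.49 RPKM, each from about 6 reads, while GABRA3 was at 4.16 and 4.70 RPKM. These genes were chosen after their values were seen.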
